A study of Homo sapiens with 12 samples.

Results

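ASCC2, HABP4, GTF3A, BAHD1, CENPBD1 and ZKSCAN2 are 6 of the 58302 genes with an FPKM value (fragments counted on the exons of a gene, scaled to exon length and library depth) in each library of this study, and all 6 had more transcript after NUF2 knockdown in both cell lines. They were chosen from the transcription-linked genes that the study drew from its differentially expressed genes shared by 769-P and ACHN cells, leaving out the KDM, SET, PRMT, PCGF, BRPF, NuRD, MXD and forkhead families. The higher level with si-NUF2 is therefore what selected them, and the knockdown values below are a description with no test. The difference between the cell lines and the genes that work with the 6 were not part of that choice and were tested. Lists of those genes were, however, drawn up with earlier results of these data known.

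The study compared 4 groups of 3 libraries. 769-P and ACHN are established human lines that the labels describe as clear cell renal cell carcinoma (ccRCC) cells, and each was transfected for 48 h with si-NUF2 or with the negative control siRNA (si-NC), with no further allele or drug in any group. NUF2 encodes a subunit of the NDC80 complex, which ties kinetochores to spindle microtubules in mitosis. The supplementary material of the study describes si-NUF2 as a mixture of a pair of siRNAs against NUF2, so loss of NUF2 and an action of either siRNA on other transcripts cannot be told apart. Nothing states that the libraries of a group came from separate cultures, so p-values measure the spread between these libraries, which may be technical. The target transcript, NUF2, measured 4.17, 3.86 and 3.01 FPKM in knockdown libraries of 769-P, against 19.4, 17.8 and 17.8 FPKM in the controls. The ACHN knockdown libraries had 2.16, 5.14 and 4.25 FPKM, against 11.6, 15.0 and 14.8 FPKM. The mean was 20.1% and 27.9% of the si-NC mean, respectively, so NUF2 was low in every library labelled si-NUF2. The libraries held between 29225120 and 38845812 recovered reads, and mitochondrial genes took 20.1% to 26.9% of the FPKM. Of the renal epithelial markers, PAX8, PAX2, KRT8 and KRT18 were present in every library. EPCAM was low in 769-P cells (mean of 0.834 FPKM with si-NC, against 14.6 FPKM in ACHN), and CDH6 was near 0 in ACHN cells (mean of 0.000699 FPKM with si-NC, against 6.17 FPKM in 769-P). The 7 immune and endothelial markers together summed to 0.0197 to 0.113 FPKM per library, and CD3E was at 0 in all 12.

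ASCC2, HABP4, GTF3A and BAHD1 act at different steps of gene expression. ASCC2 is the ubiquitin-binding subunit of the activating signal cointegrator 1 complex (ASC-1), which serves in transcription and alkylation repair and takes apart ribosomes that have collided on an mRNA. HABP4 is an RNA-binding protein and the paralog of SERBP1, both of which associate with ribosomes. GTF3A (TFIIIA) is the zinc finger factor that binds the 5S ribosomal RNA gene and starts its transcription by RNA polymerase III, and it also binds the 5S RNA. BAHD1 is a scaffold of heterochromatin that brings histone deacetylases and HP1 proteins to silenced genes. CENPBD1 is named after the DNA-binding domain type of the centromere protein CENP-B, and ZKSCAN2 is a zinc finger protein with KRAB and SCAN domains.

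The genes lie on 5 chromosomes, in GENCODE release 29 coordinates on GRCh38. ASCC2 (ENSG00000100325) is on the reverse strand at chr22:29788608-29838304, HABP4 (ENSG00000130956) on the forward strand at chr9:96450201-96491336, GTF3A (ENSG00000122034) on the forward strand at chr13:27424544-27435823 and BAHD1 (ENSG00000140320) on the forward strand at chr15:40439721-40468242. CENPBD1 (ENSG00000177946) at chr16:89969773-89972832 and ZKSCAN2 (ENSG00000155592) at chr16:25236001-25257931 are both on the reverse strand. CENPBD1 is protein coding in GENCODE release 29, whereas the RefSeq table lists it as CENPBD1P, a transcribed pseudogene. Genes on the opposite strand share exonic bases with 5 of the 6. The strand setting of the read counting is not given in the sources used here, so reads of the shared stretch cannot be assigned. The shared stretch made up 27.0% of the exonic bases of HABP4 (with CDC14B), 8.51% of BAHD1 (with AC013356.2), 6.40% of ZKSCAN2 (with AC008741.1), 6.03% of GTF3A (with MTIF3) and 5.88% of CENPBD1 (with AFG3L1P). AC008741.1 was at 0 FPKM in all 12 libraries, and AC013356.2 reached at most 0.466 FPKM.

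RefSeq holds promoter windows for 4 of the 6 genes (GRCh38.p14), and they are shown here to describe the sequence. Each line gives the stretch upstream of the annotated start, 5′ to 3′ on the strand of the gene, cut where an exon of the gene begins in GENCODE release 29. The windows are chr22:29838305-29838524 (reverse strand) for ASCC2, chr9:96449919-96450168 for HABP4, chr13:27424369-27424543 for GTF3A and chr15:40440703-40440952 for BAHD1, the last 3 on the forward strand. The BAHD1 window is the first of its 3 RefSeq entries and lies within the span of the gene but outside its exons. Capitals mark matches on either strand to a GC box, a CCAAT box, a CRE core or an NRF1 core, with the letters searched given after the sequences.
ASCC2: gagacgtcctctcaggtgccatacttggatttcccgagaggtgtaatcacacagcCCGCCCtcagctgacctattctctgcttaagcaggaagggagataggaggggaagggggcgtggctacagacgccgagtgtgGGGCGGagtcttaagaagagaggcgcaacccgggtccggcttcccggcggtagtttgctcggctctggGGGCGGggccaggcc
HABP4: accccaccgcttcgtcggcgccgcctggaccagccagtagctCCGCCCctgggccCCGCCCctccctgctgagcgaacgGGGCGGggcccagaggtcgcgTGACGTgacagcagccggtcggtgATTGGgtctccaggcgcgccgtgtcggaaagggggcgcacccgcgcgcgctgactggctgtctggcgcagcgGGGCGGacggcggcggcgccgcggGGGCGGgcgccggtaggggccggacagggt
GTF3A: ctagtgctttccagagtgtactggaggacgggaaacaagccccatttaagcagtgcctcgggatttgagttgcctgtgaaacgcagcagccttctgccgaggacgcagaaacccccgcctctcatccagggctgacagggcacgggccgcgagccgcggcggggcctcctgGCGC
BAHD1: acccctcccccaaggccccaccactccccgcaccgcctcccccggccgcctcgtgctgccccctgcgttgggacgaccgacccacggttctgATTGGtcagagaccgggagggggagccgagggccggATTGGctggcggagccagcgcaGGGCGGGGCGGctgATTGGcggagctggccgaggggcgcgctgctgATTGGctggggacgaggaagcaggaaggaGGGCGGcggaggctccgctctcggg
The NRF1 core matches of GTF3A straddle the exon start, and the 29 bases that hold them, at chr13:27424540-27424568, are shown on their own.
GTF3A NRF1 matches: GCGCATGCGCgatctcccggaGCATGCGC

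Over the full 250 bases before the RefSeq start, all 4 promoters were richer in G and C than the median of 58.0% over 35116 promoters. The GC content was 62.4% for ASCC2, 78.0% for HABP4, 68.4% for GTF3A and 74.4% for BAHD1. The ratio of observed to expected CpG was 0.713, 0.980, 0.958 and 0.728, respectively, against a median of 0.558. The GC box (GGGCGG) was the only motif searched that was found in all 4, with 3 matches in ASCC2, 5 in HABP4, 1 in GTF3A and 3 in BAHD1, and 42.6% of all promoters hold at least 1. The NRF1 core (GCGCATGC), which 2.63% of all promoters hold, matched 3 times in GTF3A and not in the other windows, and a pair of the matches overlap in the palindromic run. BAHD1 held 4 CCAAT boxes and HABP4 held 1 (32.0% of all promoters). The CRE core (TGACGT), found in HABP4, is in 7.10% of promoters. No match was found in the 4 windows for the ETS (CCGGAAG, 8.52% of promoters), E-box (CACGTG, 6.34%), CHR (TTTGAA, 13.3%), E2F (TTTGGCGC, 0.550%) or YY1 (AAGATGGC, 1.36%) letters. BAHD1 differs between its RefSeq entries. Its second entry, which reaches to the annotated start of the gene, has 0 GC boxes, 1 CCAAT box, a GC content of 59.6% and a CpG ratio of 0.278, so the motif shared by all 4 genes depends on the entry taken. The third entry has 3 GC boxes and 0 CCAAT boxes. These matches describe the sequence and are not binding sites.

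GTF3A had the highest FPKM of the 6 in every group, and CENPBD1 the lowest. ASCC2, HABP4 and BAHD1 lay between, and ZKSCAN2 was next to CENPBD1. The libraries held 1420 to 3579 reads of GTF3A, 1224 to 2553 of ASCC2, 660 to 1705 of BAHD1, 350 to 1465 of HABP4, 253 to 739 of ZKSCAN2 and 47 to 165 of CENPBD1, so the counting error was largest for CENPBD1. In all 6 genes and both lines, the lowest si-NUF2 library was above the highest si-NC library. The same contrast chose the genes, and the share of all genes separated in this way was not counted. In bulk RNA, more cells with a transcript and more transcript per cell cannot be told apart.

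HABP4 showed the largest ratio of si-NUF2 to si-NC of the 6 in both lines. The 769-P knockdown libraries had 11.5, 11.0 and 10.6 FPKM of HABP4 in replicates 1, 2 and 3, and the control libraries had 4.07, 4.62 and 3.41 FPKM. For ACHN the values were 9.28, 6.04 and 5.09 FPKM after knockdown, against 3.59, 3.20 and 2.45 FPKM in the controls. The si-NUF2 libraries of 769-P were close together, whereas in ACHN replicate 1 stood above replicates 2 and 3 with either siRNA. The ratio of the means was 2.73 in 769-P and 2.21 in ACHN. The log2 fold change was 1.45 (SE 0.117) and 1.11 (SE 0.256), which placed HABP4 at rank 62 from the highest of 14155 genes in 769-P and at rank 79 of 15116 in ACHN. The SE in ACHN was 0.103 once same-numbered libraries were compared with each other. CDC14B, the phosphatase gene on the opposite strand, changed by -0.12 in 769-P on the log2 scale (limma, adjusted p = 0.503) and by -0.05 in ACHN (adjusted p = 0.991).

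For GTF3A, knockdown libraries of 769-P gave 33.4, 29.4 and 31.6 FPKM in replicates 1, 2 and 3 and control libraries 21.8, 20.4 and 20.001 FPKM. The ACHN values were 32.6, 27.7 and 29.2 FPKM after knockdown and 15.1, 16.6 and 17.6 FPKM in the controls. The si-NUF2 levels of the lines overlapped, whereas every si-NC library of ACHN was below every si-NC library of 769-P. The ratio of the means was 1.52 in 769-P and 1.82 in ACHN, with log2 fold changes of 0.61 (SE 0.0787) and 0.87 (SE 0.111). Replicate 1 of ACHN gave the widest gap, with a ratio of 2.16, against 1.66 in replicates 2 and 3. MTIF3, a mitochondrial translation initiation factor on the opposite strand, averaged 9.67 FPKM after knockdown against 9.73 FPKM in the controls of 769-P, and 7.51 against 7.71 FPKM in ACHN.

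ASCC2 reached 12.9, 11.0 and 11.9 FPKM after knockdown in replicates 1, 2 and 3 of 769-P, against 8.40, 7.93 and 6.98 FPKM in the controls. ACHN cells had 12.02, 12.3 and 13.8 FPKM after knockdown and 8.46, 9.44 and 9.45 FPKM in the controls. The gap between the groups was wider than the spread within either. The ratio of the means was 1.54 in 769-P and 1.39 in ACHN, with log2 fold changes of 0.62 (SE 0.103) and 0.49 (SE 0.102).

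The level of BAHD1 in 769-P was 10.5, 9.64 and 9.50 FPKM after knockdown, in replicate order, and 8.04, 7.45 and 7.14 FPKM in the controls. Its level in ACHN was 6.27, 7.04 and 6.27 FPKM after knockdown and 4.05, 4.63 and 4.33 FPKM in the controls. All 6 libraries of ACHN were below all 6 of 769-P, so the knockdown level in ACHN did not reach the control level of 769-P. The ratio of the means was 1.31 in 769-P, the smallest of the 6 genes, and 1.51 in ACHN, with log2 fold changes of 0.39 (SE 0.0834) and 0.60 (SE 0.104).

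CENPBD1 was low throughout, with 1.01, 1.25 and 1.23 FPKM in the knockdown libraries of 769-P and 0.582, 0.693 and 0.641 FPKM in the controls. The same libraries of ACHN gave 1.36, 1.52 and 1.76 FPKM and 0.778, 0.927 and 0.932 FPKM. The ratio of the means was 1.82 in 769-P and 1.75 in ACHN, below that of HABP4 alone in 769-P and below those of HABP4 and GTF3A in ACHN. Because the gene is low, its log2 fold changes of 0.78 (SE 0.168) and 0.76 (SE 0.170) fell to 0.41 and 0.44 with a pseudocount of 1 in place of 0.1. AFG3L1P, the pseudogene on the opposite strand, went the other way in 769-P, where it fell by 0.54 on the log2 scale (limma, adjusted p = 0.0255). In ACHN its log2 fold change was -0.10 (adjusted p = 0.960).

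Knockdown libraries of 769-P held 1.66, 2.03 and 2.17 FPKM of ZKSCAN2, and control libraries held 1.08, 1.55 and 1.41 FPKM. Those of ACHN held 2.30, 2.30 and 2.71 FPKM and 1.55, 1.40 and 1.74 FPKM, respectively. The groups came closest to each other here, with 1.66 FPKM in the lowest si-NUF2 library and 1.55 FPKM in the highest si-NC library of 769-P. Replicate 1 of 769-P was the lowest with either siRNA. The ratio of the means was 1.45 in 769-P and 1.56 in ACHN, with log2 fold changes of 0.52 (SE 0.167) and 0.63 (SE 0.140). The SE was 0.0973 and 0.0809 when same-numbered libraries were compared, and the value in 769-P was 0.34 with a pseudocount of 1.

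Every same-numbered pair of libraries had a higher level with si-NUF2, for each of the 6 genes in each line. The choice of the genes favours this, and the share of all genes with every pair higher was not counted. The pair differences of BAHD1 lay between 0.37 and 0.42 in 769-P on the log2 scale and between 0.54 and 0.65 in ACHN, and those of HABP4 between 1.23 and 1.63 in 769-P and between 0.90 and 1.37 in ACHN. In 769-P, 5.29% of the 14155 genes tested passed an adjusted p under 0.05 in limma with si-NUF2 higher. With the replicate block 13.7% did. A call in this contrast is no test of the 6, which it chose, and ZKSCAN2 did not pass in 769-P without the block. In ACHN 0% of the 15116 genes, and so none of the 6, passed in either direction without the block. There 1238 genes had an unadjusted p under 0.05, and limma-voom on recovered reads also called 0 genes. NUF2 itself had a log2 fold change of -1.87 in that fit and did not pass (limma, adjusted p = 0.224). It passed with the block (adjusted p = 0.0122). A missing call in ACHN without the block is therefore not evidence of no response. With the block 7.14% of all genes in ACHN passed with si-NUF2 higher. The 6 are not compared with these shares, because the same contrast chose them.

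The size of the response in 769-P less that in ACHN is given as a description. It was 0.34 (SE 0.30) for HABP4 and 0.14 (SE 0.142) for ASCC2 on the log2 scale, with the larger response in 769-P. It was -0.26 (SE 0.127) for GTF3A and -0.20 (SE 0.126) for BAHD1, with the larger response in ACHN. For CENPBD1 it was 0.03 (SE 0.208) and for ZKSCAN2 -0.10 (SE 0.221). The estimates of ASCC2, CENPBD1 and ZKSCAN2 were smaller than their SE, and those of HABP4, GTF3A and BAHD1 were larger. With the replicate block the SE was 0.0926 for ASCC2, which is smaller than its estimate, 0.151 for HABP4, 0.113 for GTF3A and 0.0607 for BAHD1.

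Levels in the lines were compared separately under si-NC and under si-NUF2, a contrast that did not enter the choice of the genes. The lines differ widely, as 61.5% of the 15359 genes tested passed an adjusted p under 0.05 under si-NC and 61.8% of 15282 under si-NUF2. Of the 6, 2 passed in each. All 6 were above the filter in both lines, whereas the genes tested include some that are near 0 in a single line, such as CDH6. The share of all genes is therefore not a like comparison for the 6. BAHD1 was higher in 769-P with either siRNA. The log2 difference (769-P less ACHN) was 0.81 under si-NC (SE 0.109, 95% interval 0.56 to 1.07, limma, adjusted p = 0.000731) and 0.61 under si-NUF2 (SE 0.0957, 0.38 to 0.84, adjusted p = 0.00159).

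GTF3A was higher in 769-P under si-NC, with a log2 difference of 0.37 (SE 0.0951, 95% interval 0.14 to 0.59, limma, adjusted p = 0.0138). Under si-NUF2 the log2 difference was 0.10 (SE 0.0973, -0.13 to 0.33, adjusted p = 0.394). The call under si-NC was lost without replicate 1 of 769-P si-NC (0.34, adjusted p = 0.0525). MTIF3, on the opposite strand of GTF3A, was also higher in 769-P, by 0.36 under si-NC (limma, adjusted p = 0.0478). Under si-NUF2 MTIF3 was higher by 0.38 (adjusted p = 0.0166). Whether reads of the shared stretch add to the difference of GTF3A was not tested. HABP4 was higher in 769-P under si-NUF2, with a log2 difference of 0.76 (SE 0.215, 0.24 to 1.27, adjusted p = 0.0201). That call was lost without replicate 1 of 769-P si-NUF2 (0.74, adjusted p = 0.0606), without replicate 2 of 769-P si-NUF2 (0.78, adjusted p = 0.0515) and without replicate 3 of ACHN si-NUF2 (0.57, adjusted p = 0.0526). Under si-NC the log2 difference of HABP4 was 0.41 (SE 0.186, -0.03 to 0.86, adjusted p = 0.0936).

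For ASCC2, CENPBD1 and ZKSCAN2 no difference between the lines passed the test. The log2 difference of ASCC2 was -0.20 under si-NC (95% interval -0.47 to 0.07, limma, adjusted p = 0.162) and -0.07 under si-NUF2 (-0.31 to 0.18, adjusted p = 0.600). For ZKSCAN2 it was -0.18 (-0.62 to 0.25, adjusted p = 0.407) and -0.29 (-0.64 to 0.07, adjusted p = 0.139). For CENPBD1 it was -0.38 (-0.79 to 0.03, adjusted p = 0.0946) and -0.35 (-0.74 to 0.04, adjusted p = 0.102). The intervals allow a lower or a higher level in 769-P for each of these genes. The difference of CENPBD1 under si-NC passed when all 12 libraries were fitted together (limma, adjusted p = 0.0427).

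Genes that work with the 6, or share a domain with one of them, were then tested for the knockdown response. The 6 lists hold 130 genes without the members, of which 116 were tested in 769-P and 117 in ACHN. In 769-P, 13 of the 116 passed an adjusted p under 0.05 in limma (11.2%, against 9.97% of all genes), and 38 passed with the replicate block (32.8%, against 27.6% of all genes). These shares are close to those of all genes. The first count fell to 4 without replicate 3 of si-NUF2 or of si-NC, to 6 without replicate 2 of either and to 8 without replicate 1 of si-NUF2. The 1411 calls over all genes fell as well. They were 357 and 429 without replicate 3 of si-NUF2 and of si-NC, 559 and 360 without replicate 2, and 686 without replicate 1 of si-NUF2. A call of a list gene lost in such a fit is thus not particular to that gene. In ACHN none passed without the block, as for the whole table, and 11 passed with it (9.40%, against 12.2% of all genes). By direction, 4.68% of all genes fell in 769-P without the block and 13.9% with it, and 5.05% fell in ACHN with it, beside the shares that rose given above. No gene of the lists passed the test of a difference in response between the lines, with or without the block. The median over all genes was -0.01 in 769-P and 0.01 in ACHN on the log2 scale.

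Of the 16 genes of the ASC-1 complex of ASCC2 and of the response to collided ribosomes, none passed in 769-P without the block, and none passed in ACHN in either fit. With the block 1 was higher and 3 were lower in 769-P, where 27.6% of all genes passed. The median log2 fold change was 0.03 in 769-P and -0.04 in ACHN. ASCC3, the helicase of the complex, differed by 0.32 in 769-P on the log2 scale (limma, adjusted p = 0.149, and 0.0151 with the block) and by 0.15 in ACHN (adjusted p = 0.825, and 0.132 with the block). TRIP4, which gave the complex its name, had -0.25 in 769-P (adjusted p = 0.0669, and 0.0239 with the block) and -0.23 in ACHN (adjusted p = 0.776, and 0.0645 with the block). GIGYF2, a translational repressor, and LTN1, the ubiquitin ligase of stalled nascent chains, also fell in 769-P with the block, by 0.37 (adjusted p = 0.0129) and by 0.31 (adjusted p = 0.0269) on the log2 scale. ASCC1 averaged 4.45 ± 0.492 FPKM after knockdown of 769-P and 4.06 ± 0.303 FPKM in its controls (SD, n = 3), and the overlapping values gave a log2 fold change of 0.14 (adjusted p = 0.453).

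Of the 31 genes of the RNA polymerase III machinery around GTF3A, 1 was higher and 1 lower in 769-P, and with the block 6 were higher and 5 lower there and 2 were higher in ACHN. These counts are near the shares of all genes in each direction. RPL11, a ribosomal protein that binds the 5S RNA, rose in 769-P, to 231 ± 16.8 FPKM against 163 ± 15.8 FPKM in the controls (log2 fold change 0.52, limma, adjusted p = 0.0217). In ACHN its log2 fold change was 0.15 (adjusted p = 0.883). RPL5, which forms the 5S particle with RPL11, was at 309 ± 15.8 and 301 ± 12.01 FPKM, respectively. GTF3C5, a subunit of TFIIIC that is placed on the 5S gene after GTF3A, fell in 769-P by 0.28 on the log2 scale (adjusted p = 0.0461), and in ACHN its log2 fold change was 0.16 (adjusted p = 0.755). Without the block, the call of RPL11 was lost in 5 of the 6 fits that left out a library, all but the one without replicate 1 of si-NC (adjusted p up to 0.0767), and with no filter on low values. That of GTF3C5 was lost in all 6 such fits (0.0836 to 0.136), in the fit of all 12 libraries and with no filter. SNAPC1, of the complex that starts small nuclear RNA genes, was the gene of this list that passed with the block in both lines, at 0.30 in 769-P (adjusted p = 0.0148) and 0.52 in ACHN (adjusted p = 0.0203). POLR3D, a polymerase subunit, rose in ACHN with the block (0.39, adjusted p = 0.0267). Other genes of the polymerase and TFIIIC that passed with the block in 769-P split by direction, with GTF3C1 (0.29) higher and GTF3C2 (-0.25), GTF3C6 (-0.22) and POLR3K (-0.31) lower, with adjusted p-values from 0.0244 to 0.0345.

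SERBP1, the paralog of HABP4, averaged 93.5 ± 7.71 FPKM after knockdown of 769-P, against 92.8 ± 4.85 FPKM in its controls. The ACHN means were 49.5 ± 2.30 and 45.4 ± 3.40 FPKM. The log2 fold change of SERBP1 was 0.02 in 769-P (limma, adjusted p = 0.912) and 0.14 in ACHN (adjusted p = 0.826). Of the 8 genes tested from the list of this paralog and of HABP4 partners, CHD3, a chromatin remodeller, rose in 769-P (0.51, adjusted p = 0.0128), and with the block EEF2, a translation elongation factor, did as well (0.27, adjusted p = 0.0340). In ACHN, CHD3 had a log2 fold change of 0.03 (adjusted p = 0.994), and none of the 8 passed in either fit. The call of CHD3 in 769-P was lost without replicate 3 of si-NUF2 (adjusted p = 0.0543).

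Among the silencing factors linked to BAHD1, 14 were tested in 769-P and 15 in ACHN. HDAC1, the deacetylase that BAHD1 brings to chromatin, rose in 769-P from 56.8 ± 1.68 to 84.7 ± 3.13 FPKM (log2 fold change 0.59, limma, adjusted p = 0.00526). Its ACHN means were 35.1 ± 2.12 FPKM after knockdown and 25.1 ± 2.89 FPKM in the controls (0.51, adjusted p = 0.317, and 0.0166 with the block). The HP1 genes did not move together. CBX5 and CBX3, which encode HP1 proteins, fell in 769-P by 0.37 (adjusted p = 0.0225) and by 0.32 (adjusted p = 0.0354) on the log2 scale, and in ACHN their log2 fold changes were 0.05 (adjusted p = 0.997) and -0.04 (adjusted p = 0.989). CBX1, the other HP1 gene, was higher with the block in both lines, at 0.19 in 769-P (adjusted p = 0.0347) and 0.33 in ACHN (adjusted p = 0.0373). MIER3, of the deacetylase complex of BAHD1, fell in 769-P by 0.48 (adjusted p = 0.0223). With the block, CDYL, a reader of silenced histone marks, was higher (0.29, adjusted p = 0.0376) and EHMT2, a histone methyltransferase, lower (-0.19, adjusted p = 0.0333) in 769-P. The list counted 1 gene higher and 3 lower in 769-P, where 5.29% and 4.68% of all genes did so, and 3 and 4 with the block, where 13.7% and 13.9% did. HDAC1 passed in all 6 fits that left out a library. The 3 lower calls fell to 0 without replicate 2 or 3 of si-NC or replicate 3 of si-NUF2, to 1 without replicate 1 or 2 of si-NUF2 and to 2 without replicate 1 of si-NC.

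Of the 11 genes tested with a CENP-B type domain, CENPBD1P1, the pseudogene named after CENPBD1, was the one that rose in 769-P. Its mean in 769-P was 6.29 ± 0.0687 FPKM after knockdown and 4.93 ± 0.242 FPKM in the controls (log2 fold change 0.36, limma, adjusted p = 0.0328). The means in ACHN were 5.25 ± 0.268 and 4.18 ± 0.251 FPKM (0.34, adjusted p = 0.445, and 0.0331 with the block). The call in 769-P was lost in 5 of the 6 fits that left out a library, all but the one without replicate 1 of si-NC (adjusted p up to 0.110), and with no filter on low values. Because the pseudogene and CENPBD1 may share sequence, reads could be split between them, and the values of both are uncertain to that extent. TIGD5, a gene derived from a transposase, fell by 0.24 in 769-P with the block (adjusted p = 0.0357). The median log2 fold change of the list was -0.02 in 769-P and 0.12 in ACHN.

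The SCAN domain genes, relatives of ZKSCAN2, moved in 1 direction where they passed. Of 37 tested, 5 rose and 0 fell in 769-P, where 5.29% of all genes rose and 4.68% fell. With the block 12 rose and 0 fell, where 13.7% of all genes rose and 13.9% fell. In ACHN 6 rose and 0 fell with the block, where 7.14% of all genes rose and 5.05% fell. The median log2 fold change of the list was 0.09 in 769-P and 0.04 in ACHN. ZKSCAN5, ZKSCAN1 and ZSCAN29 gave the lowest p-values in 769-P, with log2 fold changes of 0.78 (limma, adjusted p = 0.00703), 0.74 (adjusted p = 0.00990) and 0.64 (adjusted p = 0.0146). In ACHN the same genes had log2 fold changes of 0.36, 0.70 and 0.80, with adjusted p-values of 0.0254, 0.0134 and 0.0120 with the block. ZNF263 (0.45 in 769-P and 0.47 in ACHN) passed with the block in both lines (adjusted p = 0.00775 and 0.0167), as did ZNF202 (0.45 and 0.48, adjusted p = 0.0301 and 0.0189). ZSCAN30 rose in 769-P (0.41, adjusted p = 0.0340). The 5 calls in 769-P fell to 2 without replicate 3 of si-NC and to 3 without replicate 2 or 3 of si-NUF2. ZKSCAN5 and ZKSCAN1 passed in all 6 fits that left out a library, ZSCAN29 in 5, ZSCAN30 in 1 and ZNF202 in 0.

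The 6 genes were also compared with each other and with all other genes over the 12 libraries, after the mean of each line had been taken out. Among the 15 pairs of the 6, Pearson's r ran from 0.758 (BAHD1 and ZKSCAN2) to 0.955 (GTF3A and BAHD1), with a median of 0.883. These values mostly carry the difference between si-NUF2 and si-NC, by which the genes were chosen. With the mean of each of the 4 groups taken out, the median r was -0.19, and 6 of the 15 pairs were positive. The highest was 0.70, between CENPBD1 and ZKSCAN2, and the lowest -0.72, between BAHD1 and ZKSCAN2. ASCC2 with BAHD1 (0.57) and with GTF3A (0.55) were the next highest, and HABP4 with CENPBD1 was at -0.61. The points share libraries and same-numbered libraries deviate together, so these values are a description.

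Of 12932 genes above the filter in both lines, those most like each of the 6 by Pearson's r, with line means taken out, were HARS (0.989), CSK (0.988) and VOPP1 (0.985) for ASCC2. For HABP4 they included SLC33A1 (0.982) and NUDCD3 (0.977), and for GTF3A they were TOR3A (0.990), ATP5F1 (0.987) and PCGF6 (0.986). KLHDC10 (0.987), TOMM22 (0.980) and CCDC43 (0.975) were the most like BAHD1. The zinc finger genes ZNF134 (0.989) and ZNF675 (0.982) were the most like CENPBD1. ZNF480 (0.969), VGLL4 (0.967) and ARHGAP21 (0.961) were the most like ZKSCAN2. Each gene named here had a higher fitted level with si-NUF2 in both lines, from 0.25 (ATP5F1) to 1.02 (CSK) on the log2 scale in 769-P. With only line means taken out, these r values mostly carry the difference between si-NUF2 and si-NC. The higher levels therefore follow from how these genes were picked. The ranking was not repeated with group means taken out.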

How the data were processed

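RNA was sequenced from 769-P and ACHN cells 48 h after transfection, and the authors deposited FPKM per gene for each of the 12 libraries. The reads were filtered with fastp by the authors, per the methods of the study, and the submitters' processing notes name HISAT2 2.0.5, featureCounts 1.5.0-p3 and hg38. FPKM were scaled by a trimmed mean of log ratios (30% of log ratios and 5% of levels trimmed), and log2(FPKM + 0.1) was fitted with limma 3.58.1 (lmFit, and eBayes with a trend) in R 4.3.3. Genes were kept where 3 or more libraries of the fit had 0.5 scaled FPKM or more, and Benjamini-Hochberg adjustment ran over all genes tested. Printed FPKM are as deposited. A permutation test of 3 libraries against 3 cannot give a p below 0.1 and was not used. Each line was fitted alone for the knockdown, and the lines were compared within si-NC and within si-NUF2 after scaling all 12 libraries. The deposited unit is FPKM, so limma replaced the count test of the study, which was not run on recovered reads. Low values came out as whole reads within 0.05 for 96.6% to 96.9% of values with GENCODE release 29 exon lengths, which gave the read numbers. CENPBD1 needed a length of 2744 bases in place of 3060. Intervals cover the spread between libraries only.

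Within a line, libraries with the same number deviated together from their group means in every pair (r of 0.36, 0.27 and 0.19 for 769-P, then 0.65, 0.73 and 0.46 for ACHN), so the numbers were taken to pair the libraries, and fits with the replicate block are given beside the others where a call or count changed.

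The genes, the lists and the rule for naming list genes (up to 4 per direction and line by lowest p) were chosen with earlier results of these data known, and the motifs after the promoter sequences had been seen. Some genes that the naming rule picks are not reported here. Fits were tested on simulated data. Alternatives were other scalings, pseudocounts of 1 and 0.01, no filter, all 12 libraries in one fit, the replicate block, each library left out, and limma-voom on recovered reads, added after the data had been seen. Calculations and figures used Python 3.11.15, pandas 2.3.3, NumPy 2.4.6, SciPy 1.17.1 and matplotlib 3.10.9.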

Additional observations from a re-analysis of the deposited data

How the results depend on the processing

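The log2 fold changes of the 6 genes stayed above 0 in both lines under every alternative run. With a pseudocount of 1 they were lower for HABP4 (1.27) and CENPBD1 (0.41) in 769-P and for CENPBD1 (0.44) and ZKSCAN2 (0.43) in ACHN, since a larger pseudocount shrinks low genes. The number of genes called in 769-P was 1411, and it was 631 with no filter on low values, 717 with all 12 libraries in one fit, 3900 with the replicate block and 357 to 1142 with each library left out. The companion genes called there were 13, and they were 7 with no filter, 38 with the block and 4 to 10 with each library left out. In ACHN the count of 0 genes became 171 with all 12 libraries in one fit and 1843 with the block, and the 0 companion genes became 3 and 11. The study reported differentially expressed genes in ACHN with its count test, so the fit without the block does not recover those calls. For the difference in response, 236 genes passed with the block and 0 without. Limma-voom called 1868 genes in 769-P and 0 in ACHN.

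Between the lines, 2 of the 6 genes were called under each siRNA, and 1 to 2 with each library left out. The value of GTF3A under si-NC then ran from 0.31 to 0.41, and that of HABP4 under si-NUF2 from 0.57 to 1.00. The value of ASCC2 under si-NUF2 ran from -0.11 to 0.012 and changed sign without replicate 2 of 769-P si-NUF2, with an adjusted p of 0.942. CENPBD1 under si-NC passed with all 12 libraries in one fit (-0.38). Same-numbered libraries of different lines did not deviate together (r from -0.058 to 0.041), and the replicate block changed no call of the 6 genes there, with an adjusted p of 0.0511 for HABP4 under si-NC. Where no reason is named, the cause was not tested. The depth limits CENPBD1 most.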
